A study of Mus musculus with 16 samples.

Results

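Expression of 8 genes tied to embryonic stem (ES) cells, Sall4, L1td1, Fbxo15, Zscan10, Zfp296, Mybl2, Lin28a and Trim71, was followed through a stepwise induction of mouse induced pluripotent stem (iPS) cells. The genes were chosen by their measured levels in the same arrays, as genes that had moved part of the way towards the ES or iPS level at the intermediate stage, so their levels in the 4 groups are a description and carry no test. Of the 8 genes, 7 were read by 13 probes, out of 16590 genes with a probe, and all 7 were among the 9455 genes tested. Trim71, to which no probe is paired, was not analysed here. For 3 of the 7 genes the levels did not follow the graded order: Lin28a was not detected at the intermediate stage, Fbxo15 was higher there than in iPS cells, and L1td1 was lower in ES cells than in either.

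Total RNA was hybridised to Illumina BeadChip expression arrays, 1 array per culture dish, with 4 dishes in each of 4 groups. MEF, mouse embryonic fibroblasts, were of strain CD1 and grew with 10% serum. OKM, the intermediate stage, were CD1 cells whose titles carry 3F. The letters OKM are commonly used for the reprogramming factors Oct4, Klf4 and Myc, but the labels spell out neither them nor 3F. iPS were CD1 cells whose titles add SOX2 to 3F. On a log2 scale, Pou5f1, which encodes Oct4, read 11.59 in OKM and 5.27 in MEF. Klf4 and Myc were lower in OKM than in MEF: Klf4 read 5.26 in OKM, detected on 0 of 4 arrays, and 8.86 in MEF. Myc read 6.08 in OKM and 7.17 in MEF. Sox2 read 10.12 in OKM and 5.09 in MEF, and its change of 0.62 in iPS vs OKM was not called. Whether these probes read introduced copies of the genes was not tested. ES were ES cells of strain 129, with R26 in their titles, so the strain and the cell line cannot be told apart between ES and the others. OKM, iPS and ES cells shared 15% serum, 10 ng/ml of leukemia inhibitory factor and a feeder layer of mitomycin C-treated MEF. The dishes are called independent, but nothing says that they came from separate inductions or lines, so errors and p-values measure the spread between dishes.

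The 8 genes fall into 3 kinds. Sall4, Zscan10, Zfp296 and Mybl2 encode DNA-binding proteins. Sall4 is a zinc-finger factor of the inner cell mass and ES cells that recruits the NuRD histone deacetylase complex, and Zscan10 and Zfp296 are zinc-finger proteins of ES cells. Mybl2 (B-Myb) acts with the MuvB complex at genes of the late cell cycle and is also found in dividing cells of other types. Lin28a, L1td1 and Trim71 act on RNA: LIN28A blocks the maturation of let-7 microRNAs, L1td1 derives from the first open reading frame of a LINE-1 element, and TRIM71 is an RNA-binding TRIM-NHL protein whose mRNA is a classic let-7 target. Fbxo15 encodes an F-box protein, the substrate-binding part of an SCF ubiquitin ligase, and served as a selectable reporter in the first iPS experiments.

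The 250 bases before the annotated start are shown for 3 of the genes, to set genes detected at OKM (Zfp296, and Mybl2, which MEF also had) beside Lin28a, which was not detected there. The sequences are RefSeq's for GRCm38.p6, written 5′ to 3′ on the gene's strand. Zfp296 lies at chr7:19577037-19577286 on the plus strand, Mybl2 at chr2:163054385-163054634 on the plus strand and Lin28a at chr4:134018817-134019066 on the minus strand. For Mybl2 and Lin28a this stretch lies inside the span that the gene table gives, so transcripts with other starts overlap it. Capitals mark the motifs that a search found.
Zfp296: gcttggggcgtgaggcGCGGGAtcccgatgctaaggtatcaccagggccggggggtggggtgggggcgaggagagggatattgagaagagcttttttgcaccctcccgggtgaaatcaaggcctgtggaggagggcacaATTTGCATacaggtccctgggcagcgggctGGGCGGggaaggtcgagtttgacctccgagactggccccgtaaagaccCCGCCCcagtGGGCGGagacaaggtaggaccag
Mybl2: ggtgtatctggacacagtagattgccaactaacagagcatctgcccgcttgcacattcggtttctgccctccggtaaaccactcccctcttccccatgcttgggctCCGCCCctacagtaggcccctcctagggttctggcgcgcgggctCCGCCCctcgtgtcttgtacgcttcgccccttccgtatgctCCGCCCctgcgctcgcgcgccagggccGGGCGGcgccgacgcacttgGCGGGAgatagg
Lin28a: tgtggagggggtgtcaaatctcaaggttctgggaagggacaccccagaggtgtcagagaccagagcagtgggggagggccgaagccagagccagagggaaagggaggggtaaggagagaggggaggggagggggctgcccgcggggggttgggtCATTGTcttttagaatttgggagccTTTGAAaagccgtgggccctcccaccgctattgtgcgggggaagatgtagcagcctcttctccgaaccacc

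The search covered 8 motifs on both strands. In the Zfp296 stretch it found the octamer bound by Oct4 and its relatives, as ATTTGCAT on the printed strand (ATGCAAAT on the other), 111 bases before the start. It also found 3 GC boxes (GGGCGG, read on either strand) there, at 81, 33 and 23 bases, and 1 E2F-type element (GCGGGA) at 234 bases. Mybl2 held 4 GC boxes, at 144, 100, 59 and 32 bases, and an E2F-type element at 12 bases. Lin28a held a SOX core (CATTGT) at 96 bases and a cell cycle homology region (CHR, TTTGAA) at 71 bases. Trim71 held 1 GC box, at 12 bases, and L1td1 and Zscan10 held none of the 8. The E-box (CACGTG) was found in none of the 6 genes searched. The letters CCAAT were found in none either. The same held for the TATA box, searched as TATAAA. Over 32851 mouse promoters of the same length the octamer stood in 1.60%, the SOX core in 10.7%, the GC box in 32.7%, the E2F-type element in 16.9%, the CHR in 15.99%, the E-box in 6.02%, the letters of the CCAAT box in 33.8% and the TATA box in 12.4%. A match here is only a run of letters, and no binding was measured.

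Raw intensities had a median of 114.7 to 134.2 per array, and 44.9% to 49.1% of probes were detected, meaning a detection p-value under 0.01. Levels below are log2 intensities after background correction and quantile normalization, on which 1 unit is a 2-fold difference. Values near 4.5 to 5 lie at the floor set by the offset of 16 added to each intensity. A level of one probe cannot be set against that of another, so genes are compared only by their changes. In bulk RNA, fewer cells with a transcript and less transcript per cell cannot be told apart. Of 8 markers of ES and iPS cells, 0 were detected in MEF, 5 were detected on all OKM arrays with Esrrb and Utf1 on none, and 8 were detected on all iPS and all ES arrays. The summed linear level of 11 fibroblast markers was 72546 to 81602 in MEF, 13807 to 15264 in OKM, 12125 to 15295 in iPS and 2494 to 6801 in ES. Of the fibroblast markers, Col1a2, Col3a1 and Fap were detected on no iPS or ES array, and Postn, which was not among the 11 tested, on no array of any group. All 5 macrophage markers tested were detected on every MEF array and none on all 4 arrays of OKM, iPS or ES. The part of such cells in the levels below was not tested.

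A gene was called where its adjusted p, from limma with Benjamini-Hochberg adjustment over the genes tested, was under 0.05 and the change at least 2-fold. Between OKM and MEF, 6 of the 7 measured genes were called higher in OKM and 0 lower. Of all 9455 genes tested, 16.1% were called higher in that comparison and 15.8% lower. Between iPS and OKM, 5 of the 7 were called higher in iPS and 0 lower, beside 7.28% higher and 5.94% lower over all genes. Between iPS and ES, 1 was called higher in iPS and 2 lower, beside 11.2% higher and 7.28% lower. All 7 were called higher in ES than in MEF, beside 24.2% higher and 24.3% lower. These counts follow from the choice of the genes. The median log2 change over the 7 genes was 3.81 in OKM against MEF, 1.09 in iPS against OKM and -0.43 in iPS against ES.

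**Figure D1:**
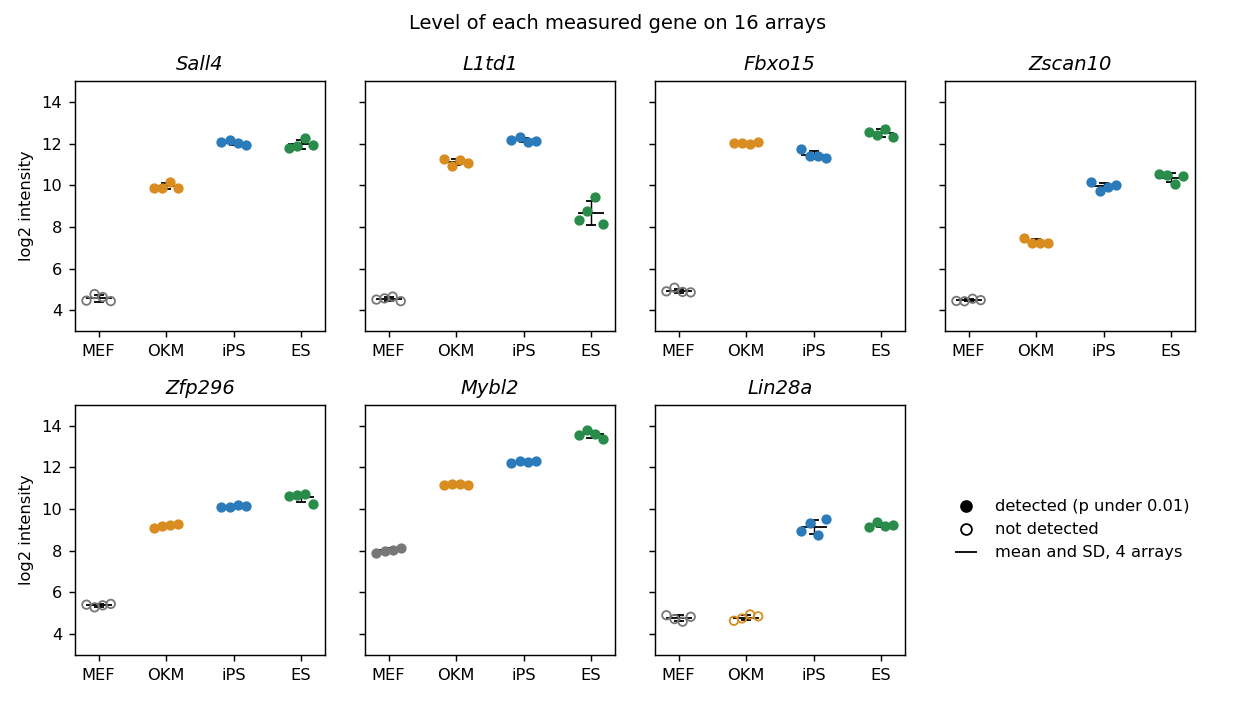
Log2 intensity of the 7 measured genes on each of 16 arrays, by group in the order of the induction; filled points are arrays with the gene detected, open points are not detected, and bars give the mean and SD of 4 arrays. Lin28a lies at the floor in MEF and OKM, Fbxo15 is higher in OKM than in iPS, and L1td1 is lower in ES than in OKM and iPS.

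Sall4 was undetected in MEF, intermediate in OKM, and higher still in iPS and ES, whose arrays overlapped. It read 4.47, 4.78, 4.64 and 4.44 in the 4 MEF dishes, and 9.88, 9.85, 10.16 and 9.89 in the OKM dishes. It read 12.05, 12.18, 12.02 and 11.93 in iPS and 11.79, 11.86, 12.28 and 11.92 in ES. All OKM arrays lay above all MEF arrays and below all iPS and ES arrays. OKM was at least 18.3-fold above MEF. This and the other "at least" folds and "at most" shares hold for the background correction used here: without it the measured OKM over MEF folds were smaller than the bounds, at 10.9 for Sall4, 24.0 for L1td1, 37.6 for Fbxo15, 2.59 for Zscan10 and 5.30 for Zfp296. Sall4 in iPS exceeded OKM by 2.10 (SE 0.12), or 4.28-fold. The difference of iPS from ES was 0.08 (SE 0.12), and it was -0.07 where arrays were scaled by their medians.

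By the brightest probe of each gene, Zscan10 had the lowest OKM share of the genes detected there. It read 4.45, 4.44, 4.56 and 4.49 in MEF and 7.49, 7.22, 7.23 and 7.22 in OKM. It then read 10.14, 9.71, 9.93 and 10.01 in iPS and 10.52, 10.47, 10.07 and 10.43 in ES. MEF arrays did not detect it and every OKM array did, at least 2.90-fold above MEF. The step from OKM to iPS was 2.65 (SE 0.11), or 6.29-fold, and the iPS and ES arrays overlapped, with iPS lower by 0.43 in the mean (-0.43, SE 0.11).

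Zfp296 was the one DNA-binding gene of the 4 whose step from OKM to iPS missed 2-fold. The MEF arrays read 5.41, 5.28, 5.38 and 5.45, none of them detected, and the OKM arrays 9.07, 9.19, 9.22 and 9.30. The iPS arrays read 10.07, 10.09, 10.19 and 10.13, and the ES arrays 10.64, 10.65, 10.70 and 10.23. No 2 groups overlapped. OKM was at least 10.8-fold above MEF, while iPS exceeded OKM by 0.93 (SE 0.10), or 1.90-fold, and lay 0.43 below ES (-0.43, SE 0.10).

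Mybl2 differed from the rest in its start, since its brightest probe detected it on every array of every group. It read 7.88, 8.01, 8.03 and 8.14 in MEF and 11.17, 11.19, 11.22 and 11.14 in OKM. In iPS it read 12.20, 12.28, 12.27 and 12.32, and in ES 13.57, 13.77, 13.59 and 13.37. The 4 groups did not overlap and rose in the order of the induction. OKM exceeded MEF by 3.17 (SE 0.09), or 8.97-fold, iPS exceeded OKM by 1.09 (SE 0.09), or 2.13-fold, and iPS was 1.31 below ES (-1.31, SE 0.09), a 2.47-fold gap. Because MEF has a measured level by this probe, the way from MEF to ES can be divided on the log2 scale. By this probe alone, OKM stood at 56.9% of it and iPS at 76.5%. The further probes of Mybl2 did not detect it in MEF. The change from OKM to iPS fell to 0.98, under the threshold, where arrays were scaled by their medians.

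Lin28a appeared after the intermediate stage. The MEF arrays read 4.90, 4.72, 4.59 and 4.83 and the OKM arrays 4.64, 4.75, 4.94 and 4.85, with detection in 0 of 4 in either group. The iPS arrays read 8.95, 9.31, 8.75 and 9.53 and the ES arrays 9.12, 9.36, 9.20 and 9.24, all detected. MEF and OKM overlapped at the floor, and iPS and ES overlapped well above it. iPS was at least 11.2-fold above OKM (a measured 6.02-fold without background correction), and ES at least 11.1-fold above MEF. The difference between iPS and ES was -0.09 (SE 0.14), and the iPS arrays were more spread than the ES arrays (SD 0.35 against 0.10).

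L1td1 was lower in ES than at the OKM and iPS stages. It read 4.52, 4.57, 4.66 and 4.44 in MEF, undetected, and 11.28, 10.93, 11.20 and 11.09 in OKM. In iPS it read 12.19, 12.31, 12.10 and 12.11, but in ES only 8.33, 8.78, 9.45 and 8.13. Every OKM and iPS array lay above every ES array, and the ES arrays were the most scattered values of the set, with an SD of 0.59. OKM was at least 41.4-fold above MEF. iPS exceeded OKM by 1.05 (SE 0.20), or 2.07-fold, and exceeded ES by 3.504 (SE 0.20), or 11.3-fold. The change from OKM to iPS lay under the 2-fold threshold with median scaling (0.95), in the last 8 columns of the deposited table alone (0.97) and without OKM replicate 2 (0.99).

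Fbxo15 was higher in OKM than in iPS. It read 4.91, 5.09, 4.88 and 4.86 in MEF, undetected, and 12.02, 12.03, 11.96 and 12.08 in OKM. It read 11.73, 11.41, 11.40 and 11.32 in iPS and 12.56, 12.43, 12.72 and 12.31 in ES. The lowest OKM array was above the highest iPS array and below the lowest ES array. OKM was at least 77.0-fold above MEF. iPS lay 0.56 below OKM (-0.56, SE 0.10), 1.47-fold and not called, and 1.04 below ES (-1.04, SE 0.10), 2.06-fold. That last difference was -0.97 without ES replicate 4 and -0.99 without iPS replicate 4, both under the 2-fold threshold, and -0.87 in the first 8 columns of the deposited table alone.

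The share of the ES level was a group's mean log2 level minus that of ES, turned into a percent on the linear scale. It is thus not a ratio of mean linear intensities. At OKM it was 24.7% ± 2.6 for Sall4, 11.8% ± 1.2 for Zscan10, 38.9% ± 2.5 for Zfp296, 19.01% ± 0.44 for Mybl2, 71.6% ± 2.4 for Fbxo15 and 548% ± 57.0 for L1td1 (SD over the OKM arrays, n = 4). For Lin28a, undetected at OKM, the share was at most 8.39% with background correction, and its measured share was 15.7% without it. At iPS the shares were 105.9% ± 7.5 for Sall4, 74.4% ± 9.1 for Zscan10, 74.0% ± 2.6 for Zfp296, 40.5% ± 1.3 for Mybl2, 93.8% ± 22.9 for Lin28a, 48.6% ± 6.4 for Fbxo15 and 1135% ± 80.1 for L1td1 (SD over the iPS arrays, n = 4). Each SD holds the ES mean fixed, so it leaves out the spread of the ES arrays and is not the error of the share. For L1td1 the iPS share was 854% in the last 8 columns of the deposited table alone and 1508% in the first 8. Measured against iPS in place of ES, which keeps the strain the same, OKM stood at 23.3% for Sall4, 15.9% for Zscan10, 52.6% for Zfp296, 47.0% for Mybl2, 48.3% for L1td1, 147% for Fbxo15 and at most 8.95% for Lin28a (measured at 16.6% without background correction). At OKM, L1td1 thus stood above its ES level and under its iPS level, and Fbxo15 under its ES level and above its iPS level.

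**Figure D2:**
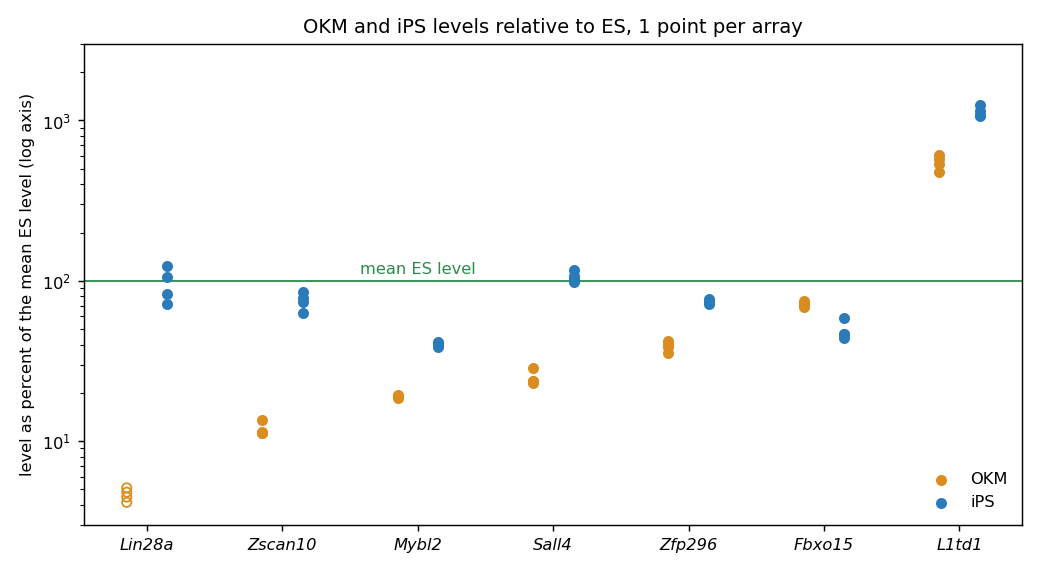
Level on each OKM and iPS array as a percent of the mean ES level of the same gene, on a log axis, with genes in the order of their OKM share; open points are arrays where the gene was not detected. The OKM shares run between the undetected Lin28a, at most 8.39%, and L1td1 at 548%.

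The median share over the 7 measured genes was 24.7% of the ES level at OKM, 47.0% of the iPS level at OKM and 74.4% of the ES level at iPS. Among the 2279 other genes called higher in ES than in MEF, the median OKM share was 48.8% (quartiles 32.2% and 70.7%) and the median iPS share 66.4% (quartiles 50.9% and 84.1%). Within that distribution 17.2% of genes had a lower OKM share than Sall4, 12.6% a lower one than Mybl2, 6.45% a lower one than Zscan10, 34.8% than Zfp296, 75.7% than Fbxo15 and 98.8% than L1td1. An OKM level under the ES level was thus common among genes higher in ES than in MEF. The 7 genes were chosen by their shares at OKM, so their places in this distribution are only a description. Among lists of other ES-associated genes, the median at OKM was 2.37% over the 15 candidate factors of the first iPS screen that were called higher in ES than in MEF, of 19 tested, and 10.3% over 16 of 17 further ES-associated genes, with genes undetected at OKM at their measured value. These lists were made with earlier results known, and the 7 genes were chosen for a partial level at OKM, so the medians are not set against each other. At iPS their medians were 60.9% and 39.3%.

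**Figure D3:**
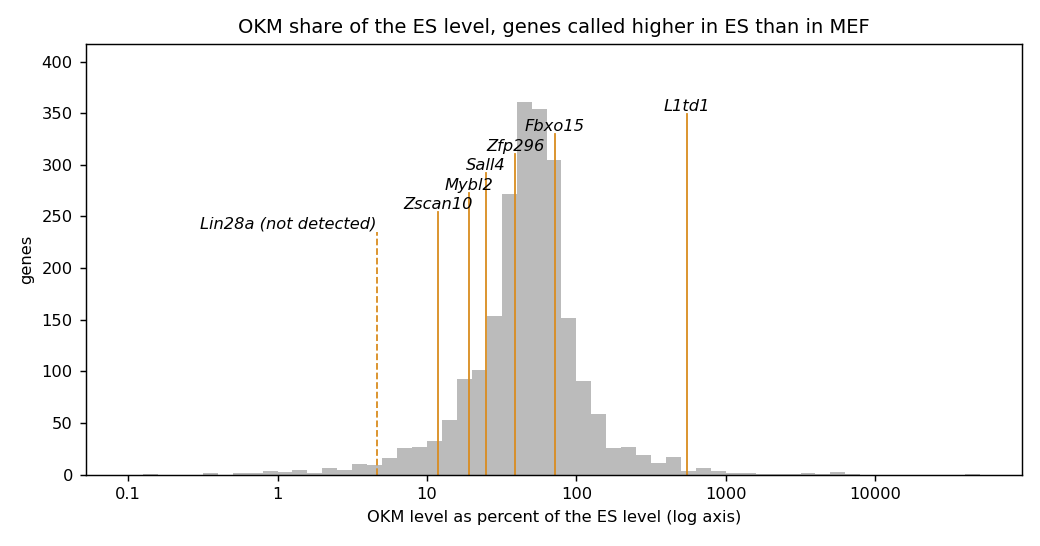
Number of genes by OKM level as a percent of the ES level, on a log axis, over the 2279 other genes called higher in ES than in MEF (grey), with lines for the 7 measured genes; the dashed line marks Lin28a, which was not detected at OKM, at its measured value. Zscan10, Mybl2 and Sall4 lie below the lower quartile of 32.2% and L1td1 far above the upper one of 70.7%.

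Several probes read 4 of the genes. The second probe of Sall4 gave 4.53 in MEF, 7.85 in OKM, 9.60 in iPS and 9.78 in ES, the same order of OKM, iPS and ES as the brighter one save that iPS and ES changed places. The third Sall4 probe was detected on 1 ES array of 4 and on no other array, so it reads at the floor (4.53 in OKM and 5.12 in ES) where the other Sall4 probes are high. The second Zfp296 probe gave 4.56, 8.90, 9.85 and 10.41 from MEF to ES, and the second Lin28a probe 4.60, 4.53, 6.74 and 7.15, again undetected in MEF and OKM. The further Mybl2 probes gave 4.89, 7.89, 8.99 and 10.27, and 5.01, 6.55, 8.57 and 9.86. They kept the order of the groups, but neither detected Mybl2 in MEF. Averaged over its 3 probes, Mybl2 stood at 37.9% of the iPS level at OKM, against 47.0% by the brightest probe.

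**Figure D4:**
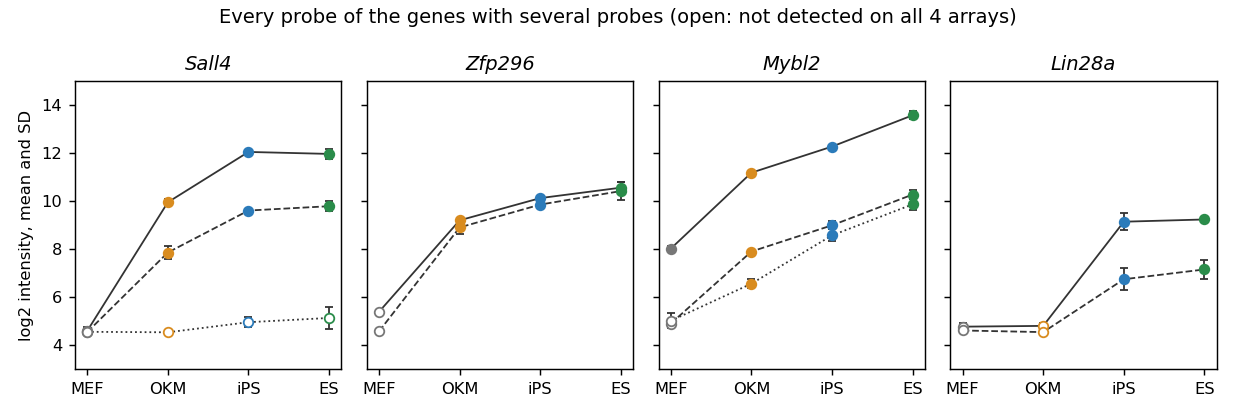
Mean log2 intensity with SD (4 arrays per group) for each probe of the 4 genes read by several probes, by group in the order of the induction; each line is 1 probe and open points mark groups in which fewer than 4 arrays detected it. Of the 3 Sall4 probes 1 stays near the floor throughout, and both Lin28a probes stay there in MEF and OKM.

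Relatives and partners of these genes were followed in the same arrays. Sall1 read 6.68 in MEF, 7.51 in OKM, 8.64 in iPS and 10.12 in ES, whereas Sall2 read 8.02, 8.02, 7.46 and 5.92, and Sall3 was detected on no array. A dimmer Sall1 probe read 4.65 in MEF, undetected, 5.73 in OKM, detected on 3 of 4 arrays, 7.19 in iPS and 9.06 in ES. The tests below used the brighter Sall1 probe only. Sall1 rose by 1.14 between OKM and iPS (SE 0.15, adjusted p = 5.19e-06 by limma) and was 1.47 lower in iPS than in ES (-1.47, SE 0.15, adjusted p = 1.8e-07). Sall2 was higher in iPS than in ES by 1.54 (SE 0.15, adjusted p = 1.24e-07). Of 11 SALL family and NuRD genes tested, 0 were called in OKM vs MEF, beside 16.1% higher and 15.8% lower over all genes. In that step 7 of the 11 had an unadjusted p under 0.05 by limma, as did 72.4% of all genes. In iPS vs OKM 1 rose, beside 7.28% of all genes. In iPS vs ES 1 was higher and 1 lower, beside 11.2% and 7.28%. The NuRD ATPase gene Chd4 read 10.13, 10.41, 10.58 and 10.76 from MEF to ES and was not called in these steps. Not all NuRD genes rose in this order. Mbd3 read 10.46, 10.01, 10.69 and 11.06 from MEF to ES, and Hdac2 12.32, 12.58, 12.37 and 12.23. The median change of the list in OKM vs MEF was 0.26, beside 0.02 over all genes tested.

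Of 5 ZSCAN family genes tested, 0 were called in OKM vs MEF, beside 16.1% higher and 15.8% lower over all genes. In that step 2 had an unadjusted p under 0.05 by limma, against 72.4% of all genes. In iPS vs OKM 2 rose and 0 fell, beside 7.28% and 5.94%. Zscan4c, a gene of the transient 2-cell-like state of ES cultures, and Zscan5b were undetected in MEF and OKM and were at least 7.53-fold and 2.57-fold higher in iPS than in OKM (adjusted p = 2.66e-11 and 1.25e-12 by limma). Zscan12, Zscan21 and Zscan26 were detected on all arrays of all groups and were not called in these steps. The Zscan4 genes are near-identical copies, so a probe for one may read others.

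Mybl2 works with MuvB, and a list was made of MuvB genes and cell cycle factors, among them the E2F and DP factors. Of this list 9 genes were tested, with Lin54 the only one from MuvB. In OKM vs MEF 2 rose, in iPS vs OKM 1 rose and in iPS vs ES 1 was lower. Over all genes these shares were 16.1%, 7.28% and 7.28%, so the counts lie near the background. E2f2 was 10.72 in OKM and 7.09 in MEF, a rise of 3.63 (SE 0.15, adjusted p = 3.7e-13 by limma), and Foxm1, the forkhead factor that joins MuvB late in the cycle, rose by 1.21 (SE 0.09, adjusted p = 1.5e-09). E2f4 rose by 1.083 in iPS vs OKM and was 1.18 lower in iPS than in ES (-1.18, SE 0.10, adjusted p = 2.47e-08). The other Myb genes, Myb and Mybl1, were detected on no array. Among 9 late cell cycle genes tested, 6 rose in OKM vs MEF, beside 16.1% of all genes. Nusap1 led by 2.10, followed by Top2a by 1.68, Cdc25c by 1.53 and Cdk1 by 1.30. In iPS vs OKM 0 were called, beside 7.28% higher and 5.94% lower over all genes. There 7 of 9 had an unadjusted p under 0.05 by limma, as did 59.4% of all genes. Over the 8 of these 9 late cell cycle genes that were higher in ES than in MEF, the median OKM share of the ES level was 73.8%. Plk1, lower in ES than in MEF, was left out of that median.

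Plk1, the mitotic kinase, stood apart from that list. Its single probe read 11.09 in MEF, 11.66 in OKM and 12.03 in iPS, but 5.88 in ES, detected there on 3 of 4 arrays. iPS exceeded ES by 6.16 (SE 0.09, adjusted p = 1.49e-18 by limma), while the other 8 genes of the list were not called between iPS and ES. Whether the strain of the ES cells bears on this probe, or on that of L1td1, was not tested.

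Around Lin28a, 15 genes of the let-7 and LIN28 axis were tested. Of these, 2 were called higher and 1 lower in OKM vs MEF, beside 16.1% and 15.8% of all genes. In OKM vs MEF, Dis3l2, the exonuclease that degrades uridylated let-7 precursors, rose by 1.81 (SE 0.12, adjusted p = 1.94e-10 by limma) and Cdc25a by 1.00, while the cyclin D2 gene Ccnd2 was 2.96 lower in OKM (-2.96, SE 0.16, adjusted p = 1.71e-11). In iPS vs OKM, the step at which Lin28a appeared, 3 rose and 0 fell, beside 7.28% higher and 5.94% lower over all genes. Those that rose were Arid3b by 2.82 (SE 0.11), the nuclear receptor gene Nr6a1 by 2.54 (SE 0.14) and the RNA-binding protein gene Igf2bp1 by 2.06 (SE 0.16). Their adjusted p was 5.94e-13, 5.91e-11 and 8.07e-09 by limma. Their log2 levels at OKM, 6.20 for Arid3b, 6.55 for Nr6a1 and 8.04 for Igf2bp1, were within 0.82 of those in MEF. The processing enzymes Drosha and Dicer1 were not called, with iPS vs OKM changes of 0.39 and 0.79. The list's median change was 0.39 in iPS vs OKM, beside -0.02 over all genes tested. In iPS vs ES only Ccnd2 and Ccnd1 were called, higher in iPS by 1.505 and 1.31, beside 11.2% higher and 7.28% lower over all genes. Lin28b, the paralog, was not analysed here.

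Beside Fbxo15 and Trim71, 9 TRIM-NHL and SCF ligase genes were tested. In OKM vs MEF 1 was called higher and 1 lower, beside 16.1% and 15.8% of all genes. Skp2, another F-box protein gene, rose by 1.31 in OKM vs MEF (SE 0.13, adjusted p = 4.37e-08 by limma) and Trim3 was 1.13 lower (-1.13, SE 0.09, adjusted p = 1.77e-09). The other 7, among them the SCF core genes Skp1, Cul1 and Rbx1 and the TRIM-NHL genes Trim2 and Trim32, were not called in that step. In iPS vs OKM 0 of 9 were called, beside 7.28% higher and 5.94% lower over all genes. In iPS vs ES 0 of 9 were called, beside 11.2% higher and 7.28% lower. In each of these 2 comparisons 3 had an unadjusted p under 0.05 by limma, against 59.4% and 65.5% of all genes.

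The genes most alike in profile were sought by Pearson's r over the 16 arrays, which lie in 4 groups, so r mostly compares 4 group means. Nearest to the mean profile of the 7 genes, each scaled to its own mean and SD, were Phc1 (r = 0.997), Cpsf4l, Epop, G3bp1, Zfp473, Prmt1, Pou5f1, Upp1, Cldn4 and Bex4 (r = 0.991). Pou5f1 read 5.27 in MEF, 11.59 in OKM, 13.30 in iPS and 14.20 in ES. Sall4 was nearest to Epop, Upp1 and G3bp1, Zscan10 to Kcnk1, Nasp and Gldc, and Zfp296 to Mcm10, Cpsf4l and Bex4. Mybl2 was nearest to Uchl1, Nup43 and Cdt1, of which Cdt1 licenses replication origins. Lin28a was nearest to Ooep, Utf1 and Cldn6 (r = 0.994 to 0.996), and Utf1 read 4.59 in MEF, 4.83 in OKM and 11.50 in iPS. L1td1 was nearest to the keratin gene Krt8, Serpinb2 and Mmp10, and Fbxo15 to Arhgap8, Tfap2c and Got1l1. Krt8 read 5.67 in MEF, 9.49 in OKM, 10.07 in iPS and 8.22 in ES, lower in ES than in OKM as L1td1 was.

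The deposited table lists the arrays in 2 parts of 8, each with 2 arrays of every group. For 5 of the 7 genes the parts differed by at most 0.24 log2 units in every group. The ES level of L1td1 was 9.12 in the last 8 columns and 8.23 in the first 8, and the iPS level of Lin28a was 9.42 and 8.85. The OKM share of the ES level for L1td1 was 436% in the last 8 columns and 687% in the first 8, above 100% in each.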

How the data were processed

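Per the file headers, the authors deposited a non-normalized table with the mean bead intensity of 25697 probes on 16 arrays, with detection p-values, and a second table of normalized linear intensities. The submitters' processing notes name GenomeStudio, with no version. A genome build is not given in the sources used here. The table's probes were named from the platform annotation, updated by Entrez ID (23962 probes) or accession (9) through a RefSeq gene table of GRCm38.p6; 23978 had 1 symbol and 1719 none.

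The non-normalized intensities were processed with limma 3.58.1 in R 4.3.3: normexp background correction based on detection p-values (offset 16), then quantile normalization and log2. Probes detected (p under 0.01) on at least 4 arrays were kept (13782), and the brightest one stood for a gene. Where a group had no detected array, the fold is given as "at least", against the higher of the array's lowest detected signal and the probe's own, a bound that holds for this background correction only. Group means were fitted to all 16 arrays (lmFit, eBayes, 12 residual and 4.84 prior degrees of freedom, two-sided). The number of arrays limits precision (median SE 0.13). Alternatives covered background, normalization, filters, thresholds, probe choice, blocks, array weights and leaving out arrays. The script was tested on simulated data.

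The members and gene lists were chosen with earlier results of these data known. Named genes were the members, up to 4 called genes per list, comparison and direction, paralogs, and the most alike genes by correlation. Chd4, Mbd3, Hdac2, Drosha, Dicer1, the other ZSCAN genes and the SCF core genes were named after their values were seen. The share medians, planned over 8 genes, cover the 7 measured. Promoters of 6 members matched RefSeq's sequence table, of which 3 are printed.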

Additional observations from a re-analysis of the deposited data

Results flagged for a closer look

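In 3 of 28 groups of 4 arrays checked (7 genes in 4 groups), 1 array lay far from the others for its group's range. Chance marks about 1 in 20 such groups. Sall4 read 10.16 in OKM replicate 3, with the nearest OKM array at 9.89. Zscan10 read 7.49 in OKM replicate 1, with the nearest OKM array at 7.23. Zfp296 read 10.23 in ES replicate 5, with the nearest ES array at 10.64. Each gap is under 0.5 log2 units, and the causes were not tested.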

How the results depend on the processing

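Of 441 values of single members under an alternative, 355 moved by less than the spread between replicates, 86 moved by more and 0 changed the direction of a call. Of 672 with 1 array left out, 656 moved by less and 16 by more. For shares this spread covers only the arrays of the group measured, with the mean of the reference group held fixed. Without background correction fewer genes were called: 1978 against 3012 in OKM vs MEF, 670 against 1250 in iPS vs OKM and 937 against 1749 in iPS vs ES. The cause was not tested. Differences from undetected groups also shrank, to 3.45 for Sall4, 4.58 for L1td1, 5.23 for Fbxo15, 1.38 for Zscan10 and 2.41 for Zfp296 in OKM minus MEF, and to 2.59 for Lin28a in iPS minus OKM, all under the bounds in the text. Lin28a at OKM then stood at 15.7% of ES and 16.6% of iPS, above its bounds, and at 2.01% and 2.15% with the offset subtracted. At the adjusted p alone 6668 (OKM vs MEF), 5182 (iPS vs OKM), 5851 (iPS vs ES) and 7725 (ES vs MEF) genes passed, because the fold threshold was dropped. With the replicate block 3012, 1251, 1675 and 4550 genes were called, so no count moved by over 1.5 times. Arrays with the same replicate number in other groups had a median correlation of deviations of -0.14 (21 pairs), against 0.02 for other numbers (75 pairs). The 21 values ran from -0.42 to 0.55, so they show no closer likeness in the median but cannot exclude a pairing of dishes. The median was 0.23 for arrays in the same part of the table (48 pairs) and -0.22 for arrays in the other part (48 pairs). With that part as a block 3012, 1251, 1749 and 4585 genes were called. With 1 array left out the counts were 2995 to 3030, 1243 to 1275, 1687 to 1846 and 4567 to 4616.

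The median share of the ES level at OKM stayed between 24.2% and 26.3%, and between 23.5% and 26.6% with 1 array left out. These ranges are those of 1 gene, Sall4, whose share is the middle one. Over the same alternatives the share ran from 10.5% to 17.2% for Zscan10, 15.5% to 20.3% for Mybl2 and 34.5% to 43.9% for Zfp296. It ran from 66.7% to 76.8% for Fbxo15, 436% to 687% for L1td1 and 2.01% to 15.7% for Lin28a. The median share of the iPS level at OKM, here the value of Mybl2, was 50.6% with median scaling. It was 37.9% with the mean of all kept probes, and 46.3% to 47.5% with 1 array left out. The median share of the ES level at iPS was 68.8% with median scaling and 79.7% in the first 8 columns alone (73.8% to 78.6% with 1 array left out). Causes of these moves were not tested. Signal near the background limits Lin28a at OKM, where only an upper bound under the background correction used is known. It also limits every fold against an undetected MEF level.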
